A study of Mus musculus with 8 samples.

Results

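The guanylate-binding proteins described here are the 8 mouse genes named Gbp2 to Gbp9, out of 21434 genes in the deposited table. They were chosen by symbol and not by a cut on measured values, but with earlier results of these data known. All 8 had a row in that table. Their transcripts were read from pancreatic tissue of 8 untreated mice at 18 weeks of age, of which 4 were Bach2KO and 4 were Bach2WT mice. Bach2KO mice were homozygous for the allele of C57BL/6N-Bach2tm1b(EUCOMM)Wtsi/leg, a constitutive deletion that every cell of the body carries, and Bach2WT mice were wild type animals of that strain. In either group mice 1 and 2 were the 2 females, mice 3 and 4 were the 2 males, and each library came from 1 mouse. The colonies were kept at 2 animal facilities, and the sources used here do not say which mouse came from which. Since acinar cells and immune cells alike lack Bach2 in the knockout, the tissue does not show which of them a difference comes from.

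Guanylate-binding proteins are large GTPases of the dynamin superfamily that interferons induce, above all interferon-gamma, in large part through IRF1. They gather on the membranes of vacuoles that hold parasites or bacteria and on bacteria in the cytosol, break these open together with the immunity-related GTPases, and pass microbial products on to inflammasomes and caspase-11. Gbp2 and Gbp5 end in a CaaX box and are anchored to membranes by a prenyl group. The exocrine pancreas devotes most of its RNA to digestive enzymes, which leaves few reads for transcripts of this kind.

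The mouse genes lie in a pair of clusters. On chromosome 3 of the table's mm39 coordinates, all on the plus strand, are Gbp5 (ENSMUSG00000105504, 142199739 to 142228105), Gbp7 (ENSMUSG00000040253, 142236103 to 142255910), Gbp3 (ENSMUSG00000028268, 142265787 to 142278970) and Gbp2 (ENSMUSG00000028270, 142326363 to 142343769). On chromosome 5, all on the minus strand, are Gbp8 (ENSMUSG00000034438, 105162016 to 105287406), Gbp9 (ENSMUSG00000029298, 105225496 to 105287405), Gbp4 (ENSMUSG00000079363, 105263633 to 105287452) and Gbp6 (ENSMUSG00000104713, 105418568 to 105441564). The models of Gbp8, Gbp9 and Gbp4 overlap one another in their spans. Of the 150-base windows of the GENCODE transcripts of Gbp6, 59.1% were identical to a window of another gene, mostly Gm43302, and its count is the least certain of the 8. The same share was 8.77% for Gbp7 (shared with Gm43802), 0.0254% for Gbp4 (shared with Gbp11) and 0 for Gbp2, Gbp3, Gbp5, Gbp8 and Gbp9.

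The promoters are shown because the family is known for its response to interferon. RefSeq promoters (assembly GRCm38.p6, whose coordinates differ from those of the table, 250 bases before to 50 after a start) were at hand for 4 of the 8 genes, the chromosome 3 members Gbp2, Gbp3, Gbp5 and Gbp7, in 5 promoters because Gbp3 has 2 starts. The interferon-stimulated response element, bound by proteins of the IRF family, was searched on both strands as 2 runs of GAAA with any 2 bases between them. It was found in all 4 genes (4 of the 5 promoters) and in 3.43% of all 32817 promoters in that table. The gamma-activated site, named for its role in the response to interferon-gamma, was searched as TTCNNNGAA, which reads the same pattern on both strands. It was found in Gbp5 and Gbp7, and in 8.29% of all promoters. The first 4 lines give the response element, which lies on the minus strand of these genes and so reads as 2 runs of TTTC here, and the last 2 lines the gamma-activated site nearest to the start, with the match in capitals.
Gbp2, chr3:142620579-142620638, plus strand, match from 59 bases before the start: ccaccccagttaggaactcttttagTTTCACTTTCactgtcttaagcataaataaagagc
Gbp3, chr3:142559974-142560033, plus strand, match from 45 bases before the start: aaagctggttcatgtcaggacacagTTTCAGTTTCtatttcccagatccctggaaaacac
Gbp5, chr3:142496744-142496803, plus strand, match from 165 bases before the start: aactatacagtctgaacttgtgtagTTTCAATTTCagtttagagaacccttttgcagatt
Gbp7, chr3:142530258-142530317, plus strand, match from 53 bases before the start: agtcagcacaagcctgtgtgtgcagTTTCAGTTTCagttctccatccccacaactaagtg
Gbp5, chr3:142496857-142496915, plus strand, match from 52 bases before the start: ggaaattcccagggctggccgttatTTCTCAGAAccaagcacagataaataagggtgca
Gbp7, chr3:142530224-142530282, plus strand, match from 87 bases before the start: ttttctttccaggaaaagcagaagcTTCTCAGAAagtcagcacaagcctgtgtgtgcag
In Gbp3 a second response element, starting 39 bases before the start, overlaps the one shown. Gbp5 and Gbp7 each hold 1 more gamma-activated site, from 245 and from 106 bases before the start. In Gbp2, Gbp3 and Gbp7 the response element starts within 60 bases of the start. A match is a run of letters and shows neither binding nor a response in these mice.

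Between 72299745 and 172029360 counts per library fell on genes, and 88.6% to 91.6% of these fell on digestive enzyme genes. Bach2 itself was counted 3 to 16 times per library labelled Bach2KO and 4 to 31 times per library labelled Bach2WT, too few to check the labels. On the first principal component of the expression profiles (23.3% of the variance), 1 library, labelled Bach2KO 3, stood apart at 101.8, the rest lying between −34.8 and 7.2. Levels are given as CPM, counts scaled to a common library size and normalised with the TMM factors of edgeR. A count of 0 allows a level of up to 3 counts, 0.0155 to 0.0432 CPM depending on the library, and this floor covers counting error only. Of the 64 counts of the 8 genes, 12 were 0 and the highest was 275, so single reads weigh on most of the values that follow. Of the 52 counts above 0, 37 were even. Over all genes, 52.8% to 56.1% of the counts above 20 in a library were even. Both mates of a read pair may thus have been counted, which was not tested, and the floor of 3 counts would then be too low.

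Per kilobase of gene, Gbp2 was the most abundant member. In the deposited FPKM values (counts per kilobase, on 1 scale for all libraries) it averaged 0.358 over the 8 mice, above 74.8% of all genes in the table. Gbp9 at 0.0674, Gbp3 at 0.0628, Gbp4 at 0.0375, Gbp7 at 0.0370, Gbp8 at 0.0291 and Gbp5 at 0.0221 FPKM followed. Gbp6 was last at 0.00467 FPKM, above 14.5% of all genes. Of the 7 neighbouring pairs in this order, the step from Gbp2 to Gbp9 alone was larger than 1 SD of the difference within mice (0.290 ± 0.235 FPKM, SD, n = 8), and Gbp2 was the higher of the pair in 7 of 8 mice. All other neighbours differed by less than that spread.

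**Figure D1:**
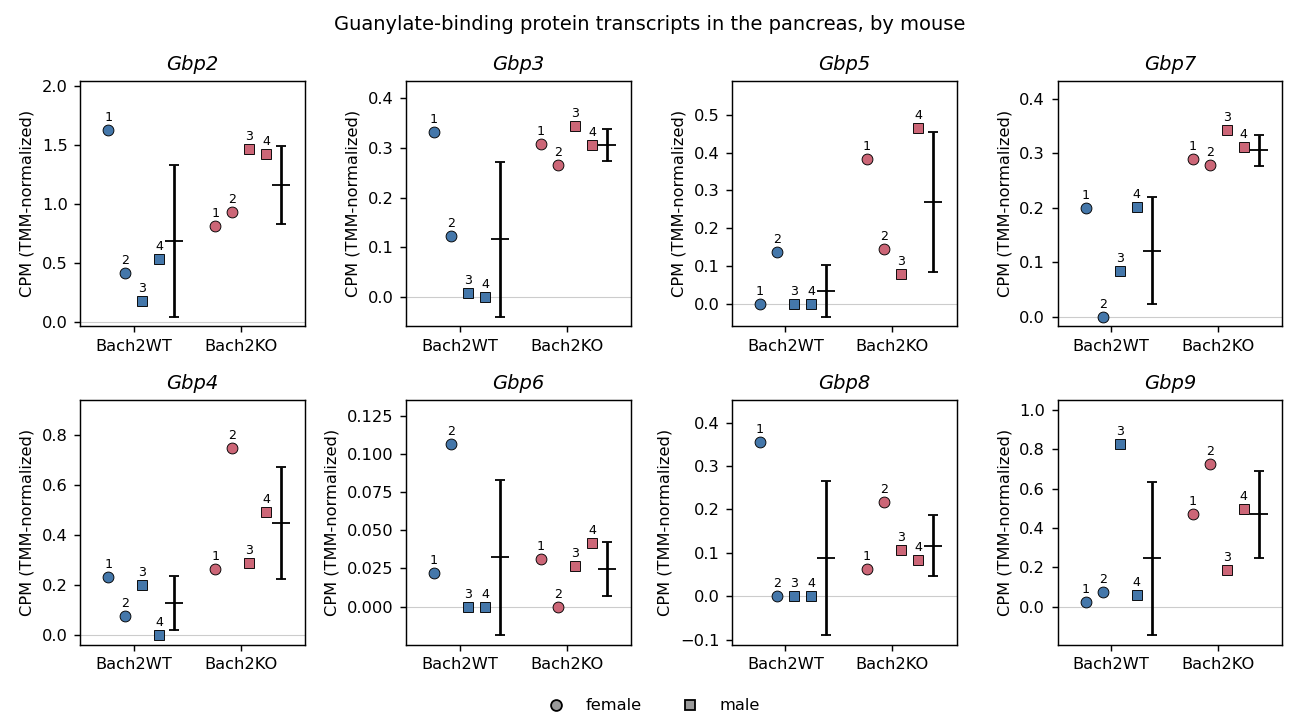
Level of each guanylate-binding protein transcript in each mouse, in CPM on a linear axis that differs between panels (Bach2WT blue, Bach2KO red, circles females, squares males, digits the mouse number), with the mean and SD of the 4 mice of a group as bars. Gbp4 and Gbp7 have all 4 Bach2KO mice above all 4 Bach2WT mice, while single Bach2WT mice stand high for Gbp2 (mouse 1), Gbp8 (mouse 1) and Gbp9 (mouse 3).

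The genotypes were compared because Bach2 restrains immune activation. None of the 8 genes passed an adjusted p of 0.05 in edgeR's quasi-likelihood test, in which 7 of the 8 genes passed the filter on low counts. Among all 12820 genes tested, 1 gene (0.0078%) was called higher in Bach2KO mice. At an unadjusted p under 0.05, 1 member was higher (Gbp5) and none lower, beside 3.90% of all genes that were higher. DESeq2 called none of the 8 genes either, though it gave Gbp8 no p-value. All 7 tested members had a positive log2 fold change, as did 54.7% of all genes tested, with a median of 1.36 against 0.05 over all genes. A gene this low can pass the filter through the group in which it is higher, so this count is read beside the fit without a filter, in which the median of all 8 was 1.13 against 0.12 over all genes. In all 8 genes the median CPM of the Bach2KO mice exceeded that of the Bach2WT mice, and in 7 of them the mean did, Gbp6 being the exception. The same shares over all genes were not taken, so these counts have no background to be read against. For Gbp6 the medians, 0.0287 against 0.0111 CPM, were no higher than the floor of some libraries, and no direction is read from them.

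Gbp2, an isoprenylated member recruited to the vacuoles of parasites and bacteria, stood at 0.815, 0.930, 1.466 and 1.425 CPM in Bach2KO mice 1 to 4 and at 1.621, 0.411, 0.174 and 0.533 CPM in Bach2WT mice 1 to 4. The groups overlapped, because Bach2WT mouse 1 had the highest level of all 8 mice, whereas its 3 fellows were below every Bach2KO mouse. The means were 1.16 ± 0.334 and 0.685 ± 0.642 CPM (SD, n = 4 each). The corresponding log2 fold change was 0.77 (SE 0.54) with an adjusted p of 0.806 in edgeR. It was the member with the most reads, 77 to 275 counts in Bach2KO and 25 to 146 counts in Bach2WT libraries.

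Gbp5, which promotes assembly of the NLRP3 inflammasome and is prenylated like Gbp2, stood at 0.383, 0.145, 0.0793 and 0.466 CPM in Bach2KO mice 1 to 4. In Bach2WT mice 1 to 4 it was at 0, 0.137, 0 and 0 CPM. Transcripts were thus counted in all 4 Bach2KO mice and in 1 Bach2WT mouse, whose 18 counts gave a level just under that of Bach2KO mouse 2 and above that of Bach2KO mouse 3. The means were 0.268 ± 0.186 and 0.0343 ± 0.0686 CPM (SD, n = 4 each). The log2 fold change was 2.86 (SE 1.28), the largest of the family, and the edgeR p was 0.0441 before and 0.663 after adjustment. Its size rests on libraries at 0 and has no firm upper limit.

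Gbp3, a neighbour of Gbp2 on chromosome 3, was even among the Bach2KO mice, at 0.309, 0.266, 0.343 and 0.306 CPM. The Bach2WT mice spread from mouse 1 at 0.333 and mouse 2 at 0.122 CPM to mice 3 and 4 at 0.00696 and 0 CPM. The female with the highest Bach2WT level thus lay among the knockouts, and both Bach2WT males lay below all of them. The means were 0.306 ± 0.0318 and 0.115 ± 0.155 CPM (SD, n = 4 each), with a log2 fold change of 1.40 (SE 1.02, adjusted p = 0.818 in edgeR).

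Gbp7, which has been linked to assembly of the NADPH oxidase and to autophagy proteins at bacterial vacuoles, was similarly even in Bach2KO mice, at 0.290, 0.278, 0.343 and 0.311 CPM. Bach2WT mice 1 to 4 had 0.200, 0, 0.0835 and 0.202 CPM. The groups did not overlap. The log2 fold change was 1.36 (SE 0.91) with an adjusted p of 0.795 in edgeR, on means of 0.306 ± 0.0287 and 0.121 ± 0.0979 CPM (SD, n = 4 each).

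Gbp4, the first of the chromosome 5 members, has been described as an inhibitor of IRF7. It stood at 0.266, 0.749, 0.291 and 0.492 CPM in Bach2KO mice 1 to 4 and at 0.233, 0.0762, 0.202 and 0 CPM in Bach2WT mice 1 to 4. All Bach2KO mice were above all Bach2WT mice, the smallest gap being between mouse 1 of either group. The means were 0.449 ± 0.224 and 0.128 ± 0.109 CPM (SD, n = 4 each). On the log2 scale the difference was 1.78 (SE 0.83), and its edgeR p was 0.0508 before and 0.668 after adjustment. Gbp4 and Gbp7 were the 2 members without overlap between the genotypes. Among all genes tested, 2.57% had every Bach2KO mouse above every Bach2WT mouse.

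Gbp9, whose gene model overlaps that of Gbp4, was at 0.469, 0.724, 0.185 and 0.497 CPM in Bach2KO mice 1 to 4. Bach2WT mice 1, 2 and 4 had 0.0222, 0.0762 and 0.0576 CPM, below all of these, but Bach2WT mouse 3 had 0.8285 CPM from 119 counts, the highest of all 8 mice. The log2 fold change was 0.89 (SE 0.89) with an adjusted p of 0.892 in edgeR. Without Bach2WT mouse 3 it was 3.13, still short of an adjusted p of 0.05.

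Gbp8 and Gbp6 had few counts, and Gbp6 was close to the floor. Gbp8 had 10, 18, 8 and 16 counts in Bach2KO mice and 32, 0, 0 and 0 counts in Bach2WT mice, 0.0618 to 0.217 CPM against 0.355 CPM in Bach2WT mouse 1 and 0 in the others. The log2 fold change was 0.40 (SE 1.42) with an adjusted p of 0.975 in edgeR, and it was −0.081 without Bach2KO mouse 2. Gbp6 had 5, 0, 2 and 8 counts in Bach2KO mice and 2, 14, 0 and 0 counts in Bach2WT mice, and did not pass the filter. In the fit without a filter its log2 fold change was −0.36 (SE 1.86, adjusted p = 0.977 in edgeR), so no direction can be given for either gene.

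**Figure D2:**
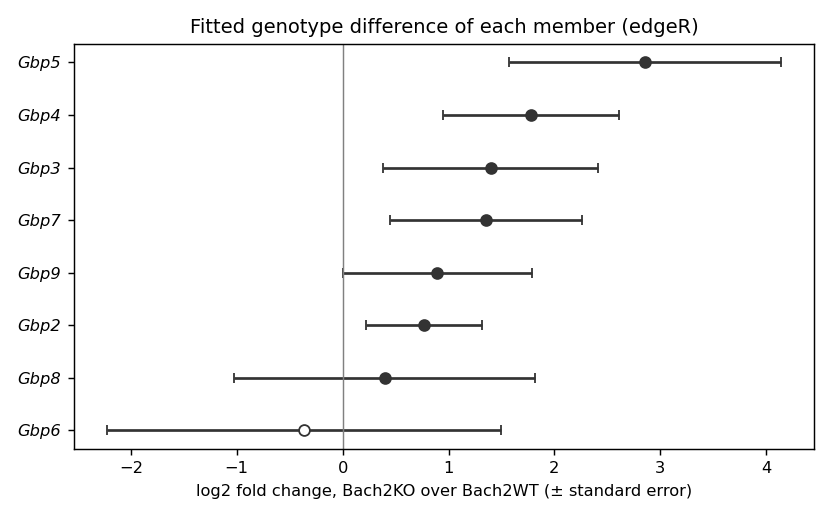
Fitted log2 fold change of each gene, Bach2KO over Bach2WT, with its standard error as bars (edgeR, 4 mice per group). The filled points are the 7 genes that passed the filter, from 0.40 (Gbp8) to 2.86 (Gbp5), and the open point is Gbp6 at −0.36 from the fit without a filter.

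Of the other guanylate-binding proteins, Gbp2b (the former Gbp1, between Gbp3 and Gbp2 on chromosome 3) had 16, 2, 0 and 20 counts in Bach2KO mice and 0 counts in every Bach2WT mouse. With every Bach2WT library set at the floor of 3 counts (0.0301 CPM on average), the Bach2KO mean of 0.0566 CPM was 1.88-fold higher. This is no firm lower limit, since the Bach2KO counts were taken as exact and both mates may have been counted. Gbp11 had 6 counts in Bach2KO mouse 4 and 0 elsewhere, and neither gene passed the filter. Gbp10 was not analysed here.

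Read by mouse and not by gene, Bach2WT mouse 1 stood nearest to the Bach2KO mice. The number of members at 0 was 0, 1, 0 and 0 in Bach2KO mice 1 to 4 and 1, 2, 3 and 5 in Bach2WT mice 1 to 4. The mean log2 CPM of the 7 tested genes (prior count 2) was −1.63, −1.32, −1.83 and −1.29 in Bach2KO mice 1 to 4 and −2.43, −3.63, −3.62 and −4.34 in Bach2WT mice 1 to 4. Summed CPM, in which Gbp2 weighs most, was 2.59 to 3.58 in Bach2KO mice, 2.76 in Bach2WT mouse 1 and 0.792 to 1.29 in the other Bach2WT mice. Bach2WT mouse 1 had the highest Bach2WT level of Gbp2, Gbp3, Gbp4 and Gbp8. After normalisation, a count of 0 allowed the highest level in Bach2WT mouse 4 (0.0432 CPM), the library with most members at 0, against 0.0209 CPM in Bach2WT mouse 3 with 3 members at 0 and 0.0396 CPM in Bach2KO mouse 3 with none. The part of depth in these zeros was not tested.

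**Figure D3:**
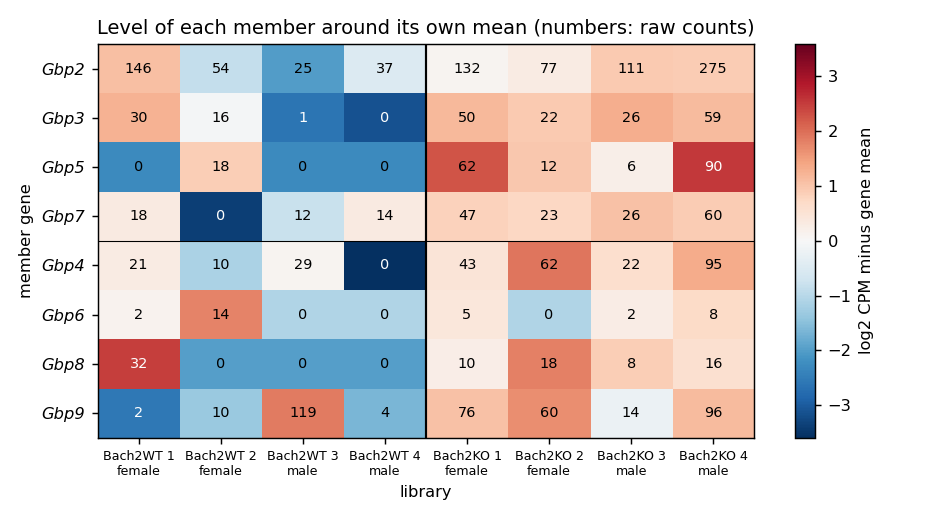
Level of each gene in each library as log2 CPM minus the mean of that gene over the 8 libraries (red above, blue below), with the raw count printed in each cell and the chromosome 3 genes above the line. Bach2WT mouse 4 has 5 genes at 0 and Bach2KO mice together have a single 0 (Gbp6 in mouse 2), while Bach2WT mouse 1 is well above the mean for Gbp2, Gbp3 and Gbp8.

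The difference between the genotypes was set against sex, with 2 mice in each cell. For Gbp2, both Bach2KO males (1.466 and 1.425 CPM) were above both Bach2WT males (0.174 and 0.533 CPM), whereas the Bach2KO females (0.815 and 0.930 CPM) lay between the Bach2WT females (1.621 and 0.411 CPM). The same was seen for Gbp3, with males at 0.343 and 0.306 against 0.00696 and 0 CPM. For Gbp9 the females were apart, at 0.469 and 0.724 against 0.0222 and 0.0762 CPM, and the males were not. The interaction of sex and genotype, as the male minus the female difference on the log2 scale, was 2.28 for Gbp2, 5.54 for Gbp3 and −3.90 for Gbp9. The edgeR p before adjustment was 0.0332 for Gbp2, 0.00787 for Gbp3 and 0.0291 for Gbp9, and after adjustment it was 0.807, 0.794 and 0.807. The interaction was largest for Gbp5 (6.15) and Gbp8 (6.84), with an edgeR p of 0.0688 and 0.0705 before adjustment. In both genes, 3 Bach2WT mice were at 0. The interaction was 0.15 for Gbp4 and −0.32 for Gbp7. For Gbp4, Gbp5 and Gbp7 the Bach2KO mice lay above the Bach2WT mice within both sexes. Thus 3 of the 7 tested members had an unadjusted p under 0.05, beside 6.14% of all genes, and none of the 12820 genes passed the adjustment. A difference between the sexes was not shown for any member.

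The genes around this family were taken from lists of its pathway. No gene of these lists passed an adjusted p of 0.05 in edgeR, and DESeq2 called 2 immunity-related GTPases and 3 interferon-gamma effector genes higher, beside 0.335% of the 15516 genes to which it gave an adjusted p. Counts are therefore given at an unadjusted p under 0.05, which 3.90% of all genes passed as higher and 3.56% as lower in Bach2KO mice. The medians cover tested genes only, and medians without the filter were not taken for these lists.

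Upstream stand the interferon receptors and their signalling proteins, of which 17 of 20 were tested, 3 were higher and none lower at the unadjusted p, with a median log2 fold change of 0.46. The 3 became 1 without Bach2KO mouse 4 and 5 without Bach2WT mouse 1. Irf1, the transcription factor needed for much of the response of guanylate-binding proteins to interferon-gamma, stood at 0.933, 1.80, 1.19 and 2.28 CPM in Bach2KO mice 1 to 4 and at 0.822, 0.846, 0.912 and 0.518 CPM in Bach2WT mice 1 to 4. The groups did not overlap, and the log2 fold change was 1.00 (SE 0.34, adjusted p = 0.552 in edgeR). Nlrc5, the activator of MHC class I genes, had a log2 fold change of 2.20 (SE 0.89, adjusted p = 0.636 in edgeR). The receptor chain Ifnar2 (−0.26, adjusted p = 0.871) and the kinase Jak1 (−0.16, adjusted p = 0.925) had the smallest p among the genes with lower values in edgeR.

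The immunity-related GTPases, which load onto the same vacuoles, had 7 of 12 genes tested, 4 higher and none lower at the unadjusted p, and a median of 1.66. Irgm2 stood at 0.902 to 2.25 CPM in Bach2KO and 0.274 to 0.533 CPM in Bach2WT mice, a log2 fold change of 1.84 (SE 0.36, adjusted p = 0.266 in edgeR). Igtp followed with 2.47 (SE 0.57, adjusted p = 0.352 in edgeR), and neither gene overlapped between the genotypes. Among these genes Bach2WT mouse 1 again had the highest sum of its group, 3.05 CPM, below the 3.50 to 8.20 CPM of the Bach2KO mice.

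Among the effector genes of interferon-gamma, 10 of 16 were tested, of which 9 were higher and none lower at the unadjusted p, with a median of 1.19. Tap1, the peptide transporter, had a log2 fold change of 1.34 (SE 0.29, adjusted p = 0.340 in edgeR) and B2m, the light chain of MHC class I, 1.11 (SE 0.25, adjusted p = 0.351 in edgeR). Psmb10, an immunoproteasome subunit, had −0.36 (adjusted p = 0.780 in edgeR), the only negative value of the list. The type I interferon targets had 13 of 21 genes tested, 1 higher and none lower at the unadjusted p, and a median of 0.71. This count does not settle a direction, being 0 higher and 1 lower with RLE factors, with the gene length offset, without Bach2KO mouse 4 and without Bach2WT mouse 3, and 1 higher and 1 lower with DESeq2 and without a filter. Oasl2, an oligoadenylate synthetase-like protein, had 1.14 and Cmpk2, a mitochondrial nucleotide kinase, −0.89 (adjusted p = 0.668 and 0.670 in edgeR).

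Of the inflammasome and pyroptosis genes 4 of 13 were tested, with none higher or lower at the unadjusted p and a median of 0.53. Gsdmd, which forms the pyroptotic pore, had a log2 fold change of 0.65 and Pycard, the inflammasome adaptor, 0.42 (adjusted p = 0.816 and 0.837 in edgeR). All 14 autophagy conjugation genes, whose products help to place these GTPases, were tested, with none higher and 1 lower at the unadjusted p and a median of −0.18. That 1 gene was Map1lc3a, which encodes an LC3 protein (−0.45, SE 0.17, adjusted p = 0.627 in edgeR). All 6 genes of CaaX prenylation were tested, with 1 higher and none lower at the unadjusted p and a median of 0.15, the higher one being the shared transferase subunit Fnta (0.63, SE 0.27, adjusted p = 0.643 in edgeR).

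**Figure D4:**
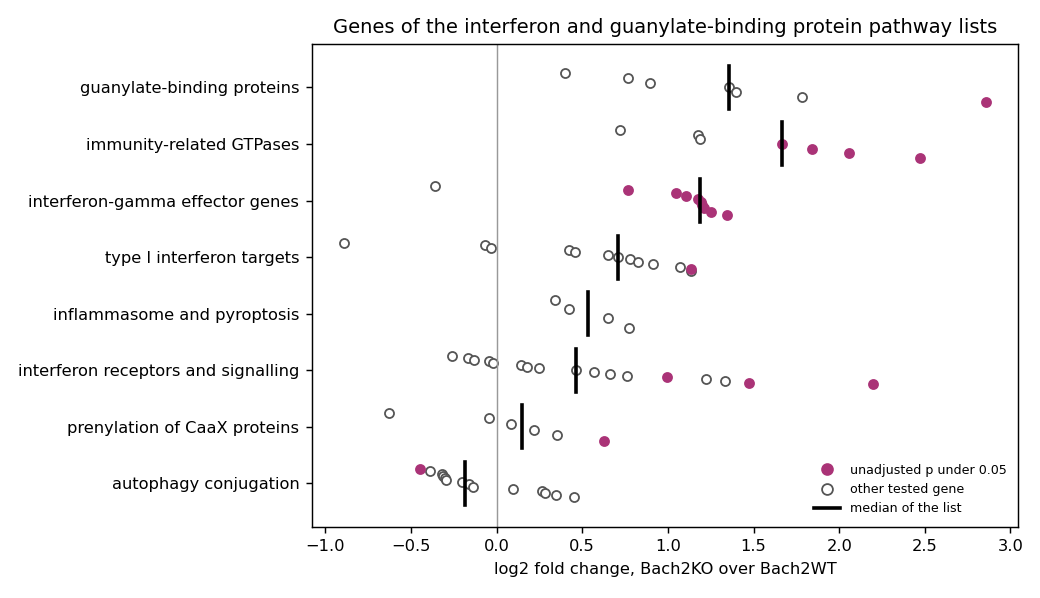
Fitted log2 fold change of every tested gene of the guanylate-binding proteins and of 7 pathway lists, Bach2KO over Bach2WT (edgeR), with filled points for an unadjusted p under 0.05 and a vertical bar for the median of each list. The medians run from −0.18 for autophagy conjugation to 1.66 for immunity-related GTPases, with the guanylate-binding proteins at 1.36. They cover only genes that passed the filter, 14 of 14 for autophagy conjugation but 7 of 12 for immunity-related GTPases. Genes this low can pass it through the group in which they are higher.

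The genes most like the family were sought over the 8 libraries, as the smallest root mean square difference from the mean profile of the 7 tested members (log2 CPM, each gene centred on its mean). They were 9330133O14Rik (0.355), Gm4285 (0.416), the chemokine Ccl6 (0.455), the DNA repair polymerase Parp2 (0.463) and the chemokine Ccl9 (0.496). The members themselves lay farther from their own mean profile, from 0.81 for Gbp2 to 1.46 for Gbp9. With 8 libraries and 12820 genes, such a likeness is a description.

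In bulk tissue, fewer cells that express a gene and less of its RNA per cell cannot be told apart, and markers of the cells that could carry these transcripts were therefore summed. T cell markers, 7 of 11 tested, came to 1.10 to 3.35 CPM in Bach2KO and 0.265 to 2.44 CPM in Bach2WT mice, and Bach2WT mouse 1 was the highest of its group. Markers of NK and cytotoxic cells, 1 of 9 tested, came to 0.229 to 1.12 against 0.0288 to 0.358 CPM, with Ncr1 at 0 in all Bach2KO and Prf1 at 0 in all Bach2WT mice. Macrophage markers, 10 of 10 tested, came to 19.4 to 33.8 against 15.1 to 30.0 CPM, with 2 higher and none lower at the unadjusted p.

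Endothelial markers, 8 of 8 tested and 2 higher at the unadjusted p, came to 16.7 to 34.3 against 13.8 to 19.4 CPM. The highest sums of endothelial (34.3 CPM), macrophage (33.8 CPM) and NK and cytotoxic markers (1.12 CPM) were all in Bach2KO mouse 3, the library that stood apart on the first component, and the other Bach2KO mice had at most 21.2, 25.7 and 0.523 CPM. Leukocyte markers, 5 of 5 tested and 1 higher, came to 8.29 to 12.1 against 3.97 to 11.0 CPM, and Bach2WT mouse 1 again had the 11.0 CPM. The median log2 fold change of these 5 was 0.58, with 4 positive. Ptprc, which encodes the common leukocyte antigen CD45, was the only negative one, at −0.02 (SE 0.51, adjusted p = 0.998 in edgeR). Neutrophil markers, 1 of 6 tested, came to 0.176 to 0.918 against 0 to 0.255 CPM, with Cxcr2, Mpo, S100a8 and S100a9 at 0 in all Bach2WT mice. S100a8 and S100a9 were called higher by DESeq2 (adjusted p = 0.0282 and 0.0280), with 2 to 40 and 6 to 29 counts in Bach2KO mice. Adipocyte markers, 4 of 6 tested, none higher and 1 lower at the unadjusted p, went the other way, at 0 to 9.03 CPM in Bach2KO and 0.648 to 16.4 CPM in Bach2WT mice. B cell markers were highest in Bach2WT mouse 1 at 4.87 CPM, against at most 1.93 CPM in Bach2KO mice. Acinar markers, which define the tissue, were present at 528842 to 599955 CPM in Bach2KO and 589740 to 789888 CPM in Bach2WT mice, with none of 14 higher and 5 lower at the unadjusted p. Of the 14, 12 had a negative log2 fold change (median −0.28), while 54.7% of all genes tested had a positive one. DESeq2 called Cpa1 lower (adjusted p = 0.0482), 1 of 23 genes that it called lower. The acinar levels depend on the TMM factors, by which CPM is divided. The factors were 1.05 to 1.18 in Bach2KO libraries, 1.10 in Bach2WT mouse 1 and 0.826 to 0.859 in the other Bach2WT libraries. Before normalisation, digestive enzyme genes held 88.6% to 90.5% of counts in Bach2KO and 90.3% to 91.6% in Bach2WT libraries. A loss of acinar transcripts as a whole is therefore not shown. The part of these cell markers in the levels of the guanylate-binding proteins was not tested.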

How the data were processed

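RNA-seq of pancreatic tissue from 4 Bach2KO and 4 Bach2WT mice was analysed from the processed table. In it the authors deposited counts per gene without normalization, a signal (the count over the size factor of its library) and FPKM values made from that signal and the gene length. It also holds the log2 fold changes and p-values of the authors' own comparison, which were not used. The submitters' processing notes name fastp, HISAT2 2.2.1, featureCounts 2.0.6 and build mm39. Their settings, strandedness and the annotation release are not given in the sources used here.

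Libraries held 72299745 to 172029360 counts. All 21434 genes entered edgeR 4.0.16 in R 4.3.3 (quasi-likelihood fit and test, TMM, filterByExpr on genotype, no covariate), which tested 12820 genes, and p-values were adjusted by Benjamini-Hochberg over all of them with a threshold of 0.05. P-values set a difference against the spread between single mice, which edgeR estimates for each gene with help from the other genes. SE is the log2 fold change over the square root of F. The sex by genotype interaction was fitted on all 8 mice. Levels between genes were compared in FPKM. The fit was repeated with DESeq2 1.42.0, with RLE factors, after removal of digestive enzyme genes from the library sizes, without a filter, with a minimum of 10 counts in every mouse, with a term for sex, with a block for the replicate number, with a gene length offset (loess, span 0.3), on counts divided by 2 and without each mouse in turn. The code was tested on simulated data.

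All 8 members are named, and of each pathway list at most 2 genes in each direction with the smallest p. The members and lists were chosen with earlier results of these data known.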

Additional observations from a re-analysis of the deposited data

Results flagged for a closer look

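In 16 groups of 4 values (8 genes in either genotype), 3 held a mouse far from its group by Dixon's ratio. This ratio is the gap to the nearest mouse over the whole range. Its limit flags about 1 in 20 groups of normally distributed values. Counts this near 0 are not so distributed, and how often chance flags them was not tested. Gbp5 in Bach2WT mouse 2 was at 0.137 CPM while its 3 fellows were at 0. Gbp8 in Bach2WT mouse 1 was at 0.355 CPM, again with the others at 0. Gbp9 in Bach2WT mouse 3 was at 0.8285 CPM while the others lay between 0.0222 and 0.0762 CPM (ratio 0.933). With 3 values at 0 the ratio is 1 by construction for Gbp5 and Gbp8, and their high values rest on 18 and 32 counts. All 3 concern Bach2WT mice, each a different one, and each draws its gene's difference towards 0.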

How the results depend on the processing

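No member had an adjusted p under 0.05 under any of the 17 alternatives, the lowest being 0.246. The number of genes called, 1 in all, was 75 with DESeq2 (52 higher, 23 lower), 73 without a filter and 0 with at least 10 counts in every mouse, with sex as a covariate, with counts divided by 2 and without any 1 mouse (0 to 0). Members at an unadjusted p under 0.05, 1 as reported, numbered 2 with DESeq2 and without a filter, 0 with at least 10 counts in every mouse (only Gbp2 could be tested) and with the gene length offset, and 0 to 4 without a mouse. They numbered 0 without Bach2KO mouse 2, Bach2KO mouse 4 or Bach2WT mouse 4, 2 without Bach2KO mouse 3 or Bach2WT mouse 3, and 4 without Bach2WT mouse 1. These fits did not test the same members. Gbp5 and Gbp8 failed the filter without Bach2KO mouse 1 or mouse 4 and with counts divided by 2 (5 members tested). Gbp8 also failed it without Bach2WT mouse 2 or mouse 3 and without digestive enzyme genes (6 tested). The 0 without Bach2KO mouse 4 thus leaves out Gbp5. The median log2 fold change of the members tested, 1.36 with all mice, ranged from 1.01 without Bach2WT mouse 4 to 2.20 without Bach2WT mouse 1. Gbp8 turned to −0.081 without Bach2KO mouse 2 and to −0.00018 without Bach2WT mouse 4, and was 6.84 without Bach2WT mouse 1, which leaves its Bach2WT mice at 0. Gbp2 ranged from 0.44 without Bach2WT mouse 3 to 1.65 without Bach2WT mouse 1, Gbp3 from 0.99 to 2.73, and Gbp9 from 0.52 to 3.13. The cause of these shifts was not tested. Of the pathway lists, genes higher at the unadjusted p without 1 mouse numbered 3 to 5 for immunity-related GTPases (4 as reported) and 1 to 5 for interferon receptors and signalling, and were 6 with 1 lower for interferon-gamma effector genes without Bach2KO mouse 3 (9 and 0 as reported). The 1 gene of prenylation was lost without Bach2KO mouse 1, Bach2KO mouse 3, Bach2WT mouse 2 or Bach2WT mouse 3, and the 1 of autophagy without Bach2KO mouse 1, Bach2KO mouse 2 or Bach2WT mouse 3.

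Mice of equal number did not deviate together (correlation 0.21, −0.03, −0.04 and −0.05 for replicates 1 to 4), and 1 of 4 matched its own number best. With the replicate number as a block, 0 genes were called, no member passed and the median of the members was 2.32. Without Bach2WT mouse 2, Gbp5 was at 0 in every Bach2WT mouse left, and its fitted value then depends on the prior count. A count of 0 allows up to 0.0432 CPM in Bach2WT mouse 4, near the levels of Gbp6. Where it was counted, Gbp8 lay above this, at 0.0618 to 0.355 CPM.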
